A study of Mus musculus with 9 samples.

Results

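Paraspeckles are nuclear bodies, and 5 genes that encode their parts or partners were followed here: the long non-coding RNA gene Neat1 and the protein genes Nono, Sfpq, Pspc1 and Rbm14. They were taken by symbol from a table of 16070 rows, and all 5 were listed once. The embryos were C57BL/6 mice grown in culture, and were described as taken for RNA 4.5 days after microinjection. There were 9 libraries in 3 groups of 3: wild type (WT), embryos titled H3R17H, which stands for histidine in place of arginine 17 of histone H3, and embryos titled Carm1-/-. The title of the series names CRISPR-Cas9 editing. How many edited embryos or alleles stand behind a library, and whether the WT embryos were injected, is not given in the sources used here. The preparation is described both as embryo and as single cell, and no label says that the libraries of a group came from separate embryos. In each edited group replicate 1 differed from the others in Y-linked transcripts, as given below, so that group was not 1 embryo sampled again. The p-values below measure the spread between libraries, which may be technical within WT and in part elsewhere.

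CARM1 is an enzyme that methylates arginines, among them residues of histone H3 and of RNA-binding proteins. In early mouse embryos it has been seen to gather in paraspeckles. A paraspeckle forms where Neat1 is transcribed: the long form of this RNA is the scaffold, and proteins bind along it. Nono, Sfpq and Pspc1 belong to one family, the DBHS proteins (Drosophila behaviour, human splicing), which pair with each other and coat the RNA, and Rbm14 has a prion-like stretch needed to assemble the body. Paraspeckles hold back some RNAs in the nucleus and take up proteins, and Neat1 and Nono have been tied to development before implantation.

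Before any result, the labels were checked on Carm1 itself, and they did not hold. Carm1 was at 6.65 to 8.86 FPKM (fragments scaled by transcript length and library total) in WT, at 0.02 to 1.88 FPKM in the libraries titled H3R17H and at 6.44 to 12.68 FPKM in those titled Carm1-/-. The column names of the table carry the same exchange. Groups are therefore called by their title throughout, and no direction below refers to a known genotype. Sex was unequal as well. Ddx3y, Uty, Kdm5d and Eif2s3y, all on the Y chromosome, summed to 28.1 to 36.6 FPKM in all WT libraries and in replicate 1 of each edited group, and to at most 0.01 FPKM in the other 4. Xist, the RNA of the inactive X chromosome, was at 0.19 to 0.43 FPKM in WT and at 16.58 to 32.54 FPKM in those 4. Of the edited libraries with Y-linked transcripts, replicate 1 titled Carm1-/- had 0.26 FPKM of Xist, and replicate 1 titled H3R17H had 4.84 FPKM, above WT. Markers of trophectoderm, the outer layer of the blastocyst, were lower than WT in 9 of 11 tested members in the libraries titled H3R17H and in 10 of 11 in those titled Carm1-/-, while of all tested genes 47.7% and 46.3% were higher than WT in these comparisons. Their summed level over 12 listed genes was 5691 to 8707 FPKM for WT, 1651 to 4646 FPKM in the libraries titled H3R17H and 2094 to 9165 FPKM in those titled Carm1-/-. The keratin genes Krt18 and Krt8, with WT means of 3304 and 2512 FPKM, made up most of the WT sum. The summed 11 epiblast markers were at 204 to 258, 268 to 307 and 262 to 370 FPKM in the same order of groups. Of these 11, 5 were higher and 6 lower than WT in the libraries titled H3R17H (median log2 difference -0.14). In those titled Carm1-/- 6 were higher and 5 lower (median 0.02). The summed 10 listed primitive endoderm markers were at 173 to 226, 147 to 178 and 88.6 to 184 FPKM in that order. Dab2, with a WT mean of 140 FPKM, made up most of the WT sum. Of the 9 primitive endoderm markers tested, 7 were lower in each comparison with WT. No listed marker of these lineages was at 0 throughout a group. In bulk RNA, fewer cells of a type and less RNA per cell cannot be told apart. The part of lineage in the results below was not tested. For the comparisons of each member with WT the values from a fit with a sex term, set by the Y-linked sum, are given. All WT libraries held Y-linked transcripts, so the term was estimated within the edited groups, from replicate 1 of each against the others. In this fit sex cannot be told apart from anything else that sets replicate 1 apart. Depth is unknown because the values hold no read counts.

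Sfpq and Pspc1 had the highest Pearson r of the member pairs over all libraries, which did not pass after adjustment. Nono and Rbm14 were the members without overlap between the libraries titled H3R17H and WT. Upstream sequences are therefore shown for these 4 protein genes. They come from RefSeq on GRCm38.p6, 250 bases before the transcript start, written 5′ to 3′ along the gene's strand, and 4 of the 5 members had an entry. For Nono only the 154 bases outside annotated exons are printed. Capitals mark matches to any of 5 motifs on either strand. The first is the CCAAT box, spelled CCAAT, which binds the factor NF-Y. The GC box, bound by Sp1, is spelled GGGCGG. The TATA box was searched as TATAAA. For the cAMP response element the core TGACG was taken. The core of sites for ETS factors was searched as CCGGAAG.

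Sfpq, chr4:127021051-127021300, plus strand: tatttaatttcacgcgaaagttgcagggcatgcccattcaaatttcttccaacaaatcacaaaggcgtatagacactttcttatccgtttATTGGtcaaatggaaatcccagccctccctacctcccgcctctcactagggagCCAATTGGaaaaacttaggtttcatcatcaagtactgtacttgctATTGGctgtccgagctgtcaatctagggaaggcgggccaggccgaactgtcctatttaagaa

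Pspc1, chr14:56778319-56778568, minus strand: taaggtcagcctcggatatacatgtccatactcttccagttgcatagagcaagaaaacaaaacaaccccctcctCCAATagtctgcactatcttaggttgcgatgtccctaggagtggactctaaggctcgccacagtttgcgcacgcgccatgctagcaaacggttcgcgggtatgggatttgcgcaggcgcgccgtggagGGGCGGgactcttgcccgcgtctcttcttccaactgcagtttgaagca

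Nono, chrX:101429401-101429554, plus strand: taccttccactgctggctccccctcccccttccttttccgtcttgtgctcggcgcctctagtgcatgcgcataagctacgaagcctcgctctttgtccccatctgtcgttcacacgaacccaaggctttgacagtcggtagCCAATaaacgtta

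Rbm14, chr19:4811635-4811884, minus strand: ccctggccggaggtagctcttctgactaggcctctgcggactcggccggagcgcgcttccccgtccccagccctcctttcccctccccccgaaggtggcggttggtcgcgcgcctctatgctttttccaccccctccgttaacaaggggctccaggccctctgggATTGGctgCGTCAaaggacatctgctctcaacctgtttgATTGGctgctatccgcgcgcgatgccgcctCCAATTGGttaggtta

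All 4 windows held CCAAT, which 33.8% of 32851 RefSeq windows of this length held. Sfpq had 4 matches, Rbm14 had 4, Nono had 2, with 1 of them in the bases printed, and Pspc1 had 1. A pair of the matches overlap head to head as CCAATTGG in Sfpq and again in Rbm14, a run found in 0.362% of all windows; this run was singled out after it was seen. Its first letter lies 107 bases before the start in Sfpq and 16 bases before it in Rbm14. Only Pspc1 held the GC box (32.7% of all windows), only Rbm14 held TGACG (17.8%), and none of the 4 held TATAAA (12.4%) or CCGGAAG (6.91%). The windows of Rbm14 and Pspc1 had 19 and 16 CG dinucleotides, those of Nono and Sfpq 13 and 8, against a median of 6 over all windows. A match is a run of letters and no measured binding.

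The members stood at very different levels. FPKM is scaled by length, so levels of different genes can be set side by side, but only roughly. For Neat1 the length used is unknown, and for Rbm14 the division of reads with an overlapping gene, as told below. Nono was the highest member in all 9 libraries, at 68.71 to 131.1 FPKM and between the 91.3 and 95.2 percentile of the listed genes. Pspc1 came next, above Sfpq in 9 of 9 libraries and above Rbm14 in 8 of 9. Rbm14 was above Sfpq in 8 of 9 libraries, but in WT the pair overlapped, at 6.86 to 11.79 FPKM for Rbm14 and 6.74 to 8.06 FPKM for Sfpq. Neat1 was the lowest in 8 of 9 libraries; in replicate 3 titled Carm1-/- Sfpq was lower, at 3.01 against 3.38 FPKM. Every member reached 1 FPKM in all 9 libraries, so none passed the filter through 1 group only.

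**Figure D1:**
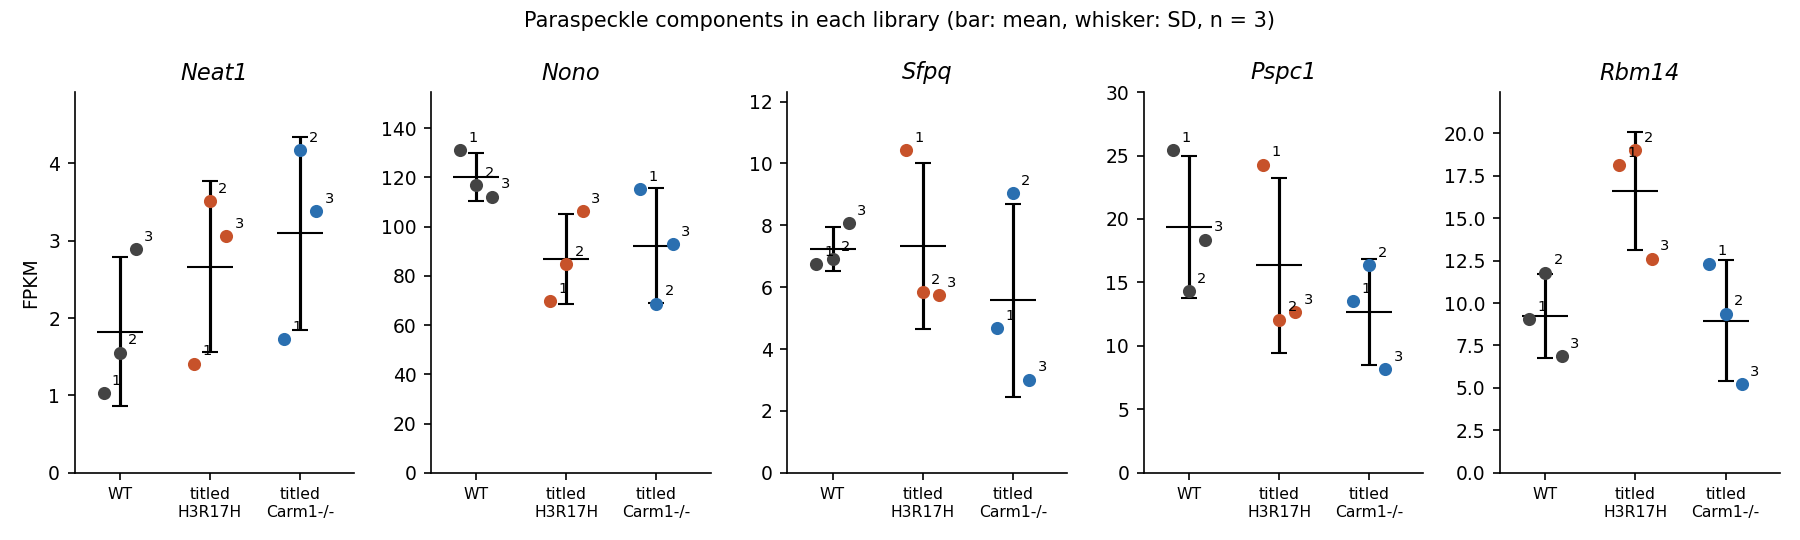
FPKM of each member in each library (points, with replicate numbers); the bar is the mean of 3 libraries and the whisker the SD, each panel on its own linear axis from 0. Nono in the libraries titled H3R17H lies from 69.75 to 106.17 FPKM, under all WT libraries, and Rbm14 there lies between 12.62 and 19.01 FPKM, above all WT libraries.

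The scaffold RNA Neat1 (chromosome 19, 5824708 to 5845478, minus strand, GRCm38) lay between the 34.5 and 57.8 percentile of the listed genes. WT replicates 1 to 3 had 1.03, 1.55 and 2.89 FPKM. The libraries titled H3R17H had 1.41, 3.51 and 3.06 FPKM, and those titled Carm1-/- had 1.73, 4.17 and 3.38 FPKM. The groups overlapped, since the highest WT library lay above replicate 1 of both edited groups. The log2 difference from WT was 0.38 (SE 0.41, 95% interval -0.52 to 1.28) in the libraries titled H3R17H and 0.54 (SE 0.41, -0.36 to 1.44) in those titled Carm1-/-. Neither passed (limma, adjusted p = 0.699 and 0.617). Leaving out 1 library moved the first between 0.17 and 0.65 and the second between 0.33 and 0.81. Intervals this wide do not show that Neat1 stayed the same.

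Neat1 was higher in each library without Y-linked transcripts than in any with them. In the 4 libraries without Y-linked transcripts it was at 3.06 to 4.17 FPKM and in the 5 libraries with them at 1.03 to 2.89 FPKM, with no overlap. This was noticed after the values were seen, 3.03% of all tested genes were higher in the same 4 libraries without overlap, and all 4 come from edited groups. The edited libraries with Y-linked transcripts had 1.41 and 1.73 FPKM of Neat1, inside the range of WT. With a sex term the log2 difference from WT was -0.16 in the libraries titled H3R17H and 0 in those titled Carm1-/-. GENCODE lists a Neat1 transcript of 20771 bases, which alone builds paraspeckles, and a short one of 3004 bases that shares its start. The table gives a single value for both, and the length behind that value is not given in the sources used here. The long form ends without a poly(A) tail, and how the cDNA was primed is also not given, so the value cannot be read as the amount of scaffold.

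Malat1, the neighbouring non-coding RNA gene on chromosome 19 and a part of nuclear speckles, had higher values. It was at 55.91 to 92.32 FPKM for WT, 60.21 to 63.78 FPKM in the libraries titled H3R17H and 65.02 to 166.85 FPKM in those titled Carm1-/-. Across the 9 libraries Neat1 and Malat1 had a Pearson r of 0.64 on the log2 scale, given as a description. The genes whose values were most like those of Neat1 over the 9 libraries were Bloc1s4 (r = 0.939), Ifitm3 (0.937) and Zfp418 (0.927), out of 10265 named genes. Like Neat1, these genes were higher in each library without Y-linked transcripts than in any with them. Here and for the members below, r ranks genes over 9 libraries that share groups, and carries no test. Some genes ranked in this way had low values. Zfp418 was at 0.06 to 1.66 FPKM, Suco at 0.43 to 2.53 FPKM, and Ifitm3, Hacl1 and Nat8f1 reached down to 0.

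Nono (chromosome X, 101429318 to 101448591, plus strand, also called p54nrb) binds RNA and DNA and pairs with the other DBHS proteins. It was at 131.1, 116.93 and 112.19 FPKM in WT. It was at 69.75, 84.85 and 106.17 FPKM in the libraries titled H3R17H, all below WT, and at 115.23, 68.71 and 92.81 FPKM in those titled Carm1-/-, where replicate 1 lay among the WT libraries. The means were 120.1 ± 9.84 FPKM for WT, 86.9 ± 18.3 FPKM in the libraries titled H3R17H and 92.2 ± 23.3 FPKM in those titled Carm1-/- (SD, n = 3). The log2 difference from WT was -0.48 (SE 0.24, 95% interval -1.02 to 0.06; limma, adjusted p = 0.398) and -0.40 (SE 0.24, -0.95 to 0.14; limma, adjusted p = 0.53), and neither passed. Of all 11850 tested genes 15.6% lay below WT without overlap in the libraries titled H3R17H, and 0% passed the adjusted threshold of 0.05 in any of the 3 comparisons. Nono is thus 1 of many genes with this separation. At an unadjusted p under 0.05 14.2% of tested genes were counted in H3R17H vs WT, 11.4% in Carm1-/- vs WT and 8.21% in Carm1-/- vs H3R17H, and Nono was in none of these.

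Because Nono is X-linked and the groups differed in sex, it was set beside the other X-linked genes. Over 387 tested X-linked genes the median log2 difference was 0.01 in the libraries titled H3R17H and 0.17 in those titled Carm1-/-, against -0.03 and -0.05 over 11421 autosomal genes. Nono lay at the 27.6 percentile of X-linked genes in the first comparison and at the 19.9 percentile in the second. The lowest Nono value among the libraries titled H3R17H, 69.75 FPKM, was in replicate 1, which had Y-linked transcripts and, unlike WT, 4.84 FPKM of Xist. With a sex term the differences were -0.45 and -0.38. Genes most like Nono were Epas1 (r = 0.962), Glb1 (0.959) and Dhrs11 (0.958).

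Pspc1 (chromosome 14, 56720710 to 56778316, minus strand), the DBHS protein first described as a paraspeckle marker, had lower means in both edited groups, but with overlap. It was at 25.43, 14.30 and 18.38 FPKM for WT, at 24.29, 12.07 and 12.67 FPKM in the libraries titled H3R17H and at 13.54, 16.35 and 8.14 FPKM in those titled Carm1-/-. The log2 difference from WT was -0.27 (SE 0.37, 95% interval -1.07 to 0.54; limma, adjusted p = 0.771) and -0.59 (SE 0.37, -1.40 to 0.22; limma, adjusted p = 0.542). With a sex term the first turned to 0.11 and the second was -0.21. Leaving out 1 library moved the first between -0.57 and -0.06 and the second between -0.78 and -0.32. Its nearest genes in pattern were Suco (r = 0.915), Rasa2 (0.905) and Pnpt1 (0.902).

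Sfpq (chromosome 4, 127021324 to 127037013, plus strand, also called PSF), a splicing factor that paraspeckles can sequester, differed mainly in its spread. It was at 6.74, 6.91 and 8.06 FPKM for WT, at 10.43, 5.83 and 5.74 FPKM in the libraries titled H3R17H and at 4.67, 9.04 and 3.01 FPKM in those titled Carm1-/-. WT lay inside the range of each edited group. The coefficient of variation was 9.93% in WT, 36.5% in the libraries titled H3R17H and 55.9% in those titled Carm1-/-. Over all tested genes the median coefficient of variation was 24.7%, 32.3% and 45.5% in the same order, so a wider spread in the edited groups was general. The log2 difference from WT was -0.02 (SE 0.38, 95% interval -0.88 to 0.83; limma, adjusted p = 0.984) and -0.43 (SE 0.38, -1.28 to 0.42; limma, adjusted p = 0.684). With a sex term they were 0.17 and -0.23. Leaving out 1 library moved the first between -0.28 and 0.11, and the second from -0.79 without replicate 2 titled Carm1-/- to -0.12 without replicate 3. Hacl1 (r = 0.958), Csnk2a1 (0.919) and Nat8f1 (0.918) were most like it.

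**Figure D2:**
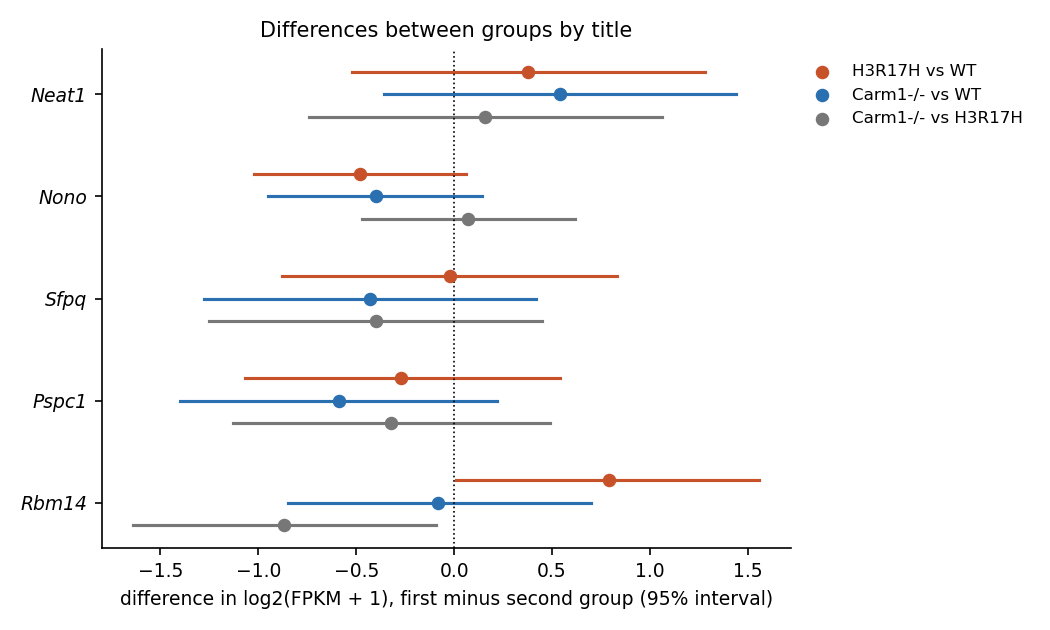
Difference in log2(FPKM + 1) of each member between groups by label (points), with the 95% interval from limma (lines), on a linear axis. Rbm14 is the member whose interval leaves out 0 in H3R17H vs WT (0.01 to 1.56) and in Carm1-/- vs H3R17H (-1.64 to -0.09), before adjustment over all genes.

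Rbm14 (chromosome 19, 4800569 to 4811634, minus strand), a coactivator with RNA-binding domains as well as a paraspeckle protein, was the member with the largest difference. It was at 9.06, 11.79 and 6.86 FPKM in WT. It was at 18.14, 19.01 and 12.62 FPKM in the libraries titled H3R17H and at 12.31, 9.37 and 5.22 FPKM in those titled Carm1-/-. The libraries titled H3R17H lay above all 6 others, by a small gap for replicate 3, while WT and the libraries titled Carm1-/- overlapped. The log2 difference was 0.79 (SE 0.35, 95% interval 0.01 to 1.56) in H3R17H vs WT, with an unadjusted p of 0.0464, and did not pass (limma, adjusted p = 0.348). Without overlap and above WT lay 13.3% of tested genes in this comparison. Directly between the edited groups Rbm14 was lower in the libraries titled Carm1-/- by a log2 difference of -0.87 (SE 0.35, -1.64 to -0.09; unadjusted p = 0.0314; limma, adjusted p = 0.569), and 6.07% of tested genes were lower there without overlap. Against WT the libraries titled Carm1-/- differed by -0.08 (SE 0.35, -0.85 to 0.70; limma, adjusted p = 0.949). With a sex term the differences from WT were 1.10 and 0.24.

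The locus of Rbm14 limits what its value means. The annotation holds a longer gene on the same strand, Gm21992 (4742913 to 4811612), which runs from Rbm14 through Rbm4, and the table lists it separately. Gm21992 was at 0.05, 5.67 and 0.53 FPKM in the WT group and at 9.33, 0 and 6.36 FPKM in the libraries titled H3R17H. It was listed at 0 in replicates 1 and 2 titled Carm1-/- and at 4.90 FPKM in replicate 3. Reads from the shared exons may be divided between these genes, and how is not given in the sources used here. Rbm4, the next gene along and also a paraspeckle protein, was at 10.24 to 25.24 FPKM for WT, 11.54 to 21.36 FPKM in the libraries titled H3R17H and 8.52 to 24.25 FPKM in those titled Carm1-/-, so its groups overlapped. An antisense gene, Gm21844, also lies within Rbm14, and whether the counting used strand is not given in the sources used here.

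The gene most like Rbm14 was Cpsf6, a cleavage and polyadenylation factor that is itself found in paraspeckles and that favours the short form of Neat1. Its Pearson r with Rbm14 was 0.979 and its Spearman rho 0.967 over the 9 libraries, the highest of 10265 named genes, followed by Ptbp1 (0.944), a splicing repressor, and Scrib (0.939). Cpsf6 was at 3.59, 4.16 and 2.91 FPKM for WT, at 6.13, 6.32 and 4.57 FPKM in the libraries titled H3R17H and at 4.78, 4.42 and 2.43 FPKM in those titled Carm1-/-. It too was above all WT libraries in the libraries titled H3R17H, with a log2 difference of 0.55 (SE 0.32; limma, adjusted p = 0.465). In that comparison 13.3% of tested genes lay above WT without overlap. Cpsf7, another listed paraspeckle protein, had a log2 difference of -0.37 there, with overlap (limma, adjusted p = 0.678).

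**Figure D3:**
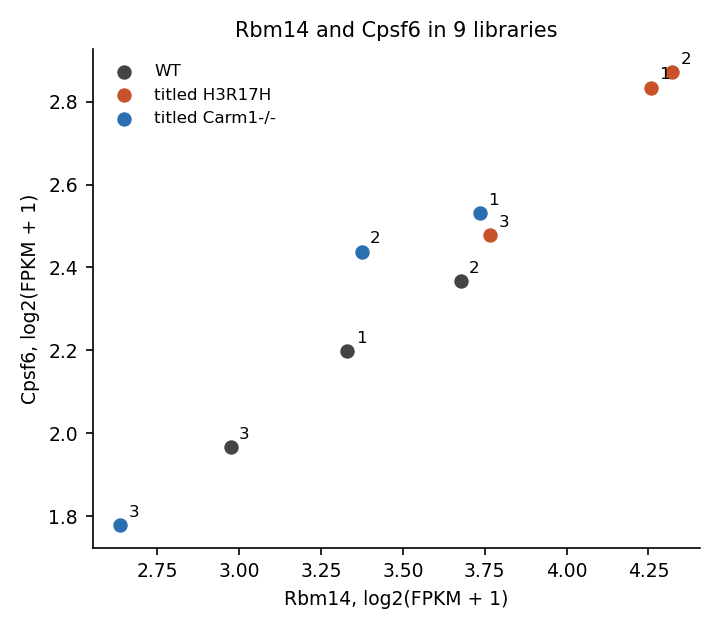
Rbm14 (horizontal) and Cpsf6 (vertical) as log2(FPKM + 1) in the 9 libraries, coloured by label and numbered by replicate. The points lie close to a line (r = 0.979), with replicates 1 and 2 titled H3R17H at the top and replicate 3 titled Carm1-/- at the bottom.

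The members were then compared in pairs. Of the 10 pairs of members, Sfpq and Pspc1 had the highest Pearson r over the 9 libraries, 0.81 (exact permutation test, two-sided, p = 0.00893, adjusted over the 10 pairs p = 0.0893), with a Spearman rho of 0.75 (exact permutation p = 0.0255, adjusted p = 0.222). Neither passed after adjustment. The permutation treated all 9 libraries as exchangeable, although they share groups and differ in Y-linked transcripts, so its p-values for all pairs carry that limit. Without the libraries farthest from the Sfpq median, replicate 1 titled H3R17H and replicate 3 titled Carm1-/-, r was 0.47; leaving out the extremes of a gene narrows its range. Taken as deviations from the group means, r was 0.78, without a test. Among all tested genes Sfpq ranked 30 by likeness to Pspc1, and Pspc1 ranked 58 by likeness to Sfpq, out of 11849. The other 9 pairs had r between -0.62 (Neat1 and Pspc1) and 0.41 (Sfpq and Rbm14), with adjusted p from 0.405 to 0.958 in the same exact test. Nono and Sfpq had an r of -0.36, and Nono and Pspc1 of 0.02. Without the libraries farthest from the Nono median, replicate 1 titled H3R17H and replicate 2 titled Carm1-/-, these were 0.48 and 0.78. Neat1 and Nono had an r of -0.47, and of -0.83 without WT replicate 1 and replicate 1 titled H3R17H. Sfpq and Rbm14 went to -0.63 without the libraries farthest from the Sfpq median. Leaving out 2 of 9 libraries thus moved the sign or the size of these values.

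**Figure D4:**
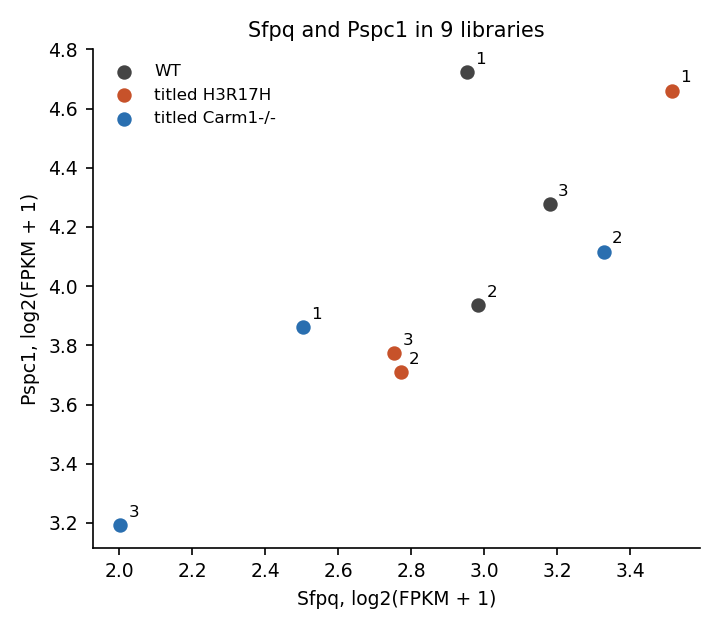
Sfpq (horizontal) and Pspc1 (vertical) as log2(FPKM + 1) in the 9 libraries, coloured by label and numbered by replicate. The highest Sfpq value is replicate 1 titled H3R17H and the lowest replicate 3 titled Carm1-/-; without this pair of libraries r falls from 0.81 to 0.47.

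Nono dominated the DBHS family. It made up 80.3% to 84.6% of the summed FPKM of Nono, Pspc1 and Sfpq in WT. Its share was 66.8%, 82.6% and 85.2% for replicates 1 to 3 titled H3R17H and 86.4%, 73.0% and 89.3% in those titled Carm1-/-. The summed FPKM of the family was 138.1 to 163.3 in WT, 102.8 to 124.6 in the libraries titled H3R17H and 94.1 to 133.4 in those titled Carm1-/-. All 6 edited libraries thus had a lower sum than any WT library, but Nono makes up most of that sum. Of all tested genes, 15.6% in H3R17H vs WT and 9.71% in Carm1-/- vs WT lay below WT without overlap. How many did so in both was not counted. The share of Nono was below WT in 2 of the 6, replicate 1 titled H3R17H and replicate 2 titled Carm1-/-, and above WT in 3.

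**Figure D5:**
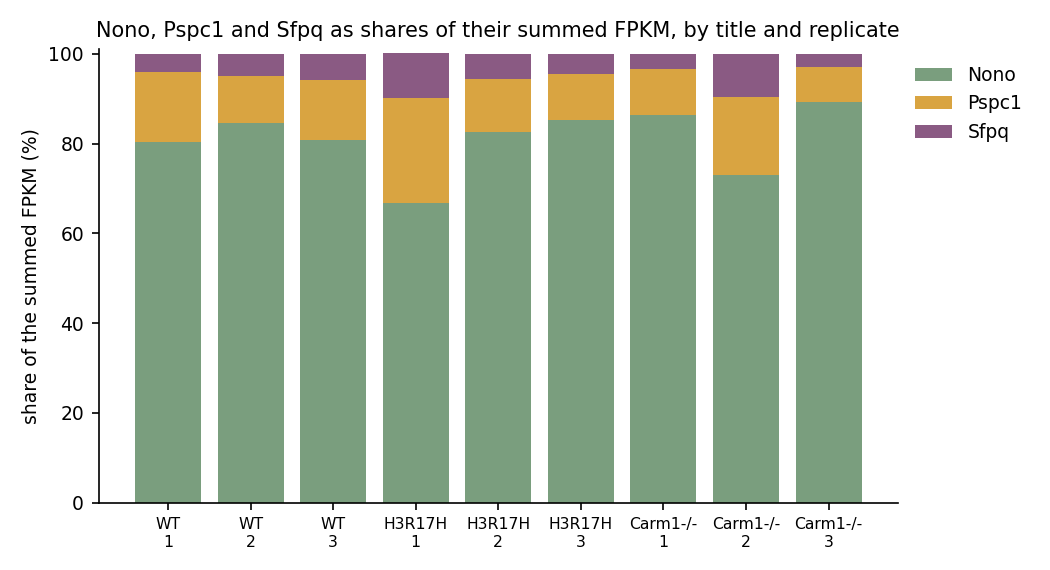
Share of Nono, Pspc1 and Sfpq in their summed FPKM (stacked bars, percent) in each library, by label and replicate. Nono holds between 66.8% and 89.3%, with the lowest shares in replicate 1 titled H3R17H and replicate 2 titled Carm1-/-.

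Other genes of the paraspeckle were read from lists. Of 4 other proteins needed to build the body (Hnrnpk, Dazap1, Hnrnph3 and Smarca4), none passed in any of the 3 comparisons (limma). In H3R17H vs WT 1 had higher and 3 lower values, with a median log2 difference of -0.30 against -0.03 over all genes, and in Carm1-/- vs WT 2 and 2, with a median of -0.08 against -0.04. Hnrnpk, an RNA-binding protein that guards the long form of Neat1 from early cleavage, was at 281.23 to 312.33 FPKM for WT, 215.21 to 248.89 FPKM in the libraries titled H3R17H and 218.12 to 277.9 FPKM in those titled Carm1-/-, below WT in all 6. Its log2 differences were -0.39 (SE 0.18, adjusted p = 0.354) and -0.34 (SE 0.18, adjusted p = 0.485; limma), and both comparisons share the WT libraries. Of all tested genes, 15.6% in H3R17H vs WT and 9.71% in Carm1-/- vs WT were below WT without overlap. The share below WT in both was not counted. Hnrnph3 had means of 27.3 ± 2.43 FPKM for WT and 19 ± 3.94 FPKM in the libraries titled H3R17H (SD, n = 3), also without overlap (adjusted p = 0.369). Dazap1 had means of 1.64 ± 0.82 and 3.68 ± 1.94 FPKM, with overlap.

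Among 33 further paraspeckle proteins 29 were listed and 27 tested, and none passed. In H3R17H vs WT 16 had higher and 11 lower values (median 0.05), and in Carm1-/- vs WT 6 and 21 (median -0.17). Without overlap 3 were above and 5 below WT in the libraries titled H3R17H, and 1 above and 3 below in those titled Carm1-/-. Over all tested genes these shares were 13.3%, 15.6%, 6.91% and 9.71%, so the counts, out of 27, lie near them. Ugp2, which makes UDP-glucose, had means of 30.6 ± 5.90 FPKM for WT, 12.2 ± 3.8 FPKM in the libraries titled H3R17H and 14.6 ± 14 FPKM in those titled Carm1-/-. Replicate 1 titled Carm1-/- stood at 30.68 FPKM for Ugp2, among WT, and the other 2 at 5.60 and 7.48 FPKM. Caprin1, a stress granule protein, had means of 46.1 ± 1.65 and 30.1 ± 9.96 FPKM for WT and in the libraries titled H3R17H. Smarcb1, a subunit of the BAF chromatin remodeller, had means of 89.4 ± 8.41, 58.5 ± 18.9 and 60.5 ± 17.1 FPKM for WT and the groups titled H3R17H and Carm1-/-. Fam98a and Tardbp were among the members above WT without overlap, the former at 4.93 ± 1.40 and 8.85 ± 1.75 FPKM in H3R17H vs WT and the latter at 18.9 ± 1.52 and 24.4 ± 3.05 FPKM in Carm1-/- vs WT. All of these had an adjusted p of at least 0.317 in limma.

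Nuclear speckles, the splicing-factor bodies next to which paraspeckles lie, were taken as a neighbouring body. Of 13 speckle genes none passed. In H3R17H vs WT 11 had lower values (median -0.19) and in Carm1-/- vs WT 10 (median -0.21). The medians over all tested genes were -0.03 and -0.04. Srrm1 had means of 48.3 ± 5.71 FPKM for WT and 28.9 ± 11.6 FPKM in the libraries titled H3R17H (adjusted p = 0.305), and Srsf7 had means of 133.8 ± 13 FPKM for WT and 90.2 ± 13 FPKM in those titled Carm1-/- (adjusted p = 0.364, limma).

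Of 8 genes of arginine methylation and nuclear RNA retention, Carm1 among them, none passed in the 3 comparisons (limma). In H3R17H vs WT 6 had higher values (median log2 difference 0.48) and in Carm1-/- vs WT 7 (median 0.50). Over all tested genes 47.7% and 46.3% were higher, with medians of -0.03 and -0.04. Prmt5, which makes symmetric dimethylarginine, was at 58.52 to 86.25 FPKM for WT, at 98.46 to 179.11 FPKM in the libraries titled H3R17H, all above WT, and at 79.42 to 133.87 FPKM in those titled Carm1-/-. The log2 difference in the libraries titled H3R17H was 0.93 (SE 0.29; limma, adjusted p = 0.247). Of all tested genes 13.3% lay above WT without overlap in this comparison. Prmt1, the main asymmetric arginine methyltransferase, overlapped in all groups, at 91.88 to 379.44 FPKM over the 9 libraries. Prmt6 was at 0.34 to 2.95 FPKM and overlapped too. Lin28a, whose RNA is held in the nucleus of human stem cells through inverted repeats, was at 2.10 to 4.03 FPKM in the WT group and at 20.59, 9.90 and 11.10 FPKM in the libraries titled Carm1-/-, all above WT (limma, adjusted p = 0.30), where 6.91% of tested genes lay above WT without overlap. In the libraries titled H3R17H Lin28a was at 3.78, 3.81 and 24.25 FPKM. Slc7a2, whose long transcript is a classic retained RNA, had means of 0.57 ± 0.48, 1.03 ± 0.30 and 1.39 ± 1.81 FPKM for WT and the groups titled H3R17H and Carm1-/-. Adar, which edits such repeats, was at 0.63 to 0.86 FPKM in the WT group and at 0.90 to 2.25 FPKM in the libraries titled H3R17H, with a log2 difference of 0.55 (limma, adjusted p = 0.594). In those titled Carm1-/- Adar was at 0.74, 4.73 and 3.13 FPKM, with overlap and a log2 difference of 1 (unadjusted p = 0.0472; limma, adjusted p = 0.429). Stau1, a competitor for these repeats, overlapped in both comparisons with WT.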

How the data were processed

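The authors deposited 1 table of FPKM values for 9 libraries, 1 column each, per the file headers. Bowtie 0.12.2, mm10 and GRCm38 appear in the submitters' processing notes, without saying what each was used for. No source used here gives the quantifier, annotation or filters. FPKM is scaled by length and by library total, which a few abundant genes can move. Groups follow the sample titles and columns the sample descriptions. Values were taken as log2(FPKM + 1), which understates changes of low genes. Of 16070 rows, the 11850 that reached 1 FPKM in 3 or more libraries entered 1 limma fit over all 9 libraries with an intensity trend. The p-values of each of the 3 contrasts were adjusted by Benjamini-Hochberg over the whole fit, with calls under 0.05, and 3 against 3 libraries cannot reach a two-sided permutation p below 0.1. The fit was tested on simulated data. Genes most like a member had the highest Pearson r over 9 libraries, without predicted models. From each list of the paraspeckle and speckle, the 4 members with the smallest p in each comparison with WT could be named, and not all are; Rbm4, Gm21992 and Malat1 were chosen for their position. A further gene of the core paraspeckle list is not reported here. The members and lists were chosen with earlier results of these data known. Alternatives changed 1 choice at a time. Positions are 1-based, from GENCODE M21 on GRCm38. R 4.3.3, limma 3.58.1, Python 3.11.15, pandas 2.3.3, numpy 2.4.6 and matplotlib 3.10.9 were used.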

Additional observations from a re-analysis of the deposited data

How the results depend on the processing

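No member passed in any of 297 recomputed results, and 280 kept their direction. The others changed sign at values of at most 0.24 on the log2 scale. Sfpq in H3R17H vs WT went from -0.02 to 0 with median-of-ratios scaling and with array quality weights, 0.02 with quantile normalization and 0.17 with a sex term. The sex term also turned Neat1 to -0.16 and Pspc1 to 0.11 in H3R17H vs WT, and Neat1 to 0 and Rbm14 to 0.24 in Carm1-/- vs WT. Leaving out 1 library moved Sfpq in H3R17H vs WT between -0.28 and 0.11, Rbm14 in Carm1-/- vs WT between -0.32 and 0.23, and, in Carm1-/- vs H3R17H, Neat1 between -0.11 and 0.43 and Nono between -0.10 and 0.27. Nono in Carm1-/- vs WT was -0.21 without replicate 2 titled Carm1-/- and -0.58 without replicate 1. Rbm14 in H3R17H vs WT ranged from 0.60 to 1.10, with an adjusted p of 0.152 to 0.701 in limma, and Nono from -0.63 to -0.33, with 0.197 to 0.785.

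The number of genes past the threshold moved from 0 in H3R17H vs WT to 1 with a pseudocount of 5, 192 with array quality weights and 240 with only the groups compared. In Carm1-/- vs WT it moved from 0 to 1 with a pseudocount of 0.1 and to 1 with array quality weights. In Carm1-/- vs H3R17H it moved from 0 to 1 with a pseudocount of 0.1 or of 5, to 2 with median-of-ratios scaling or quantile normalization and to 3 without a trend. Leaving out 1 library gave 0 to 125 genes in H3R17H vs WT, 0 to 549 in Carm1-/- vs WT and 0 to 10 in Carm1-/- vs H3R17H, the highest each time without replicate 1 titled Carm1-/-. The cause was not tested.

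With the replicate number as a block no member passed (adjusted p from 0.282 to 0.985 in limma) and 0 genes were called in each comparison. Deviations from the group means correlated over 0.1 in 1 of 9 pairs with the same number, from -0.05 to 0.18. Among pairs with unlike numbers 1 of 18 did so, from -0.25 to 0.27. These correlations cannot exclude that libraries were paired by number. Neat1 gave no value with a mean of at least 5 FPKM.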
